A study of Mus musculus with 4 samples.

Results

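The clustered protocadherins are cell-surface adhesion proteins encoded in 3 neighbouring gene clusters, alpha, beta and gamma, on mouse chromosome 18. They were taken from the count table as the identifiers that GENCODE M21 lists as protein-coding genes with a symbol starting in Pcdha, Pcdhb or Pcdhg. This gave 57 of the 55573 genes in the table, namely 14 alpha, 22 beta and 21 gamma genes, chosen by name and not by any measured value. RNA had been sequenced from SmoWT cells, a mouse medulloblastoma culture of the Sonic Hedgehog subtype, kept as neurospheres in Neurobasal medium with B27. Medulloblastoma is a tumour of the cerebellum, and in this subtype the tumour cells resemble the precursors of granule neurons. The cells were of C57BL/6 strain and carried the genotype Ptch1+/-, Trp53-/- in every library, having been derived from tumours that arose spontaneously in such mice. One group of 2 libraries received DMSO, the solvent, and the other group of 2 received GDC0449 at 0.1 µM (vismodegib, which inhibits the Hedgehog signal transducer Smoothened), each for 24 h. The comparison therefore addresses how clustered protocadherin transcripts differ after 24 h of Smoothened inhibition in a single cultured tumour model that lacks p53. The labels do not say whether the replicates were separate cultures, so the p-values rest on the spread between these samples alone and that spread may be technical.

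Clustered protocadherins give neurons a surface identity. Each neuron expresses a small set of isoforms, chosen by promoters that are switched on one by one, and the proteins bind only to matching sets on other cells, which in many neurons ends in repulsion between branches of the same cell. In the alpha and gamma clusters, each promoter lies before its own large variable exon, which encodes the extracellular cadherin domains, the membrane span and part of the tail, and is spliced to a set of constant exons used by every member of that cluster. Beta genes have no constant exons and each is a single unspliced exon. The choice of promoter depends on CTCF and cohesin and on DNA methylation, while the C-type genes at the ends of the alpha and gamma clusters (Pcdhac1, Pcdhac2, Pcdhgc3, Pcdhgc4 and Pcdhgc5) are expressed more broadly and are regulated apart from the rest.

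In the GRCm38 (mm10) annotation all members lie on the plus strand, with the alpha genes between positions 36930184 and 37187661, the beta genes between 37264938 and 37524479, and the gamma genes between 37661793 and 37841873. For 22 of the 22 beta genes the annotated exonic bases equal the span of the gene, and for 0 of the alpha and 0 of the gamma genes. Alpha members each share 2860 to 2864 exonic bases with other alpha members, and gamma members share 2116 to 3157 with other gamma members. A read from those bases belongs to several genes at once. In the default mode of HTSeq such a read is set aside as ambiguous, and the mode used is not given in the sources used here. Of the 50-base words in each gene's longest protein-coding transcript, 48.2% to 63.9% were shared with another member for alpha genes. The shares were 41.2% to 65.9% for gamma genes and 0 to 12.0% for beta genes. Beta genes thus share the least sequence, although Pcdhb21 and Pcdhb22 overlap over 455 bases.

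The libraries held 16329721 to 20790030 reads in genes. Gli1, the transcription factor that reports Hedgehog pathway activity, stood at 271.9 ± 12.9 CPM (read counts relative to the TMM-scaled library size, mean ± SD, n = 2) with DMSO and at 35.7 ± 4.28 CPM with GDC0449, a log2 change of -2.93. Of 14 granule neuron lineage markers, 12 were tested, 6 were called higher and 0 lower (edgeR adjusted p below 0.05 and over 1.5-fold). Those called were Cntn2, Dcx, Cbln1, Neurod1, Tubb3 and Atoh1 (56.7 ± 2.01 to 99.8 ± 0.957 CPM, log2 change 0.81, edgeR adjusted p = 1.57e-13). Of all tested genes, 8.62% were called higher and 3.80% lower. With the adjusted p alone 9 markers were higher and 2 lower. The lower ones were Mycn (1307 ± 36.5 to 898 ± 19.5 CPM, log2 change -0.54, edgeR adjusted p = 3.37e-11) and Pax6 (log2 change -0.19, edgeR adjusted p = 0.0453). The summed level of the 14 markers was 3455 to 3504 CPM with DMSO and 4203 to 4266 CPM with GDC0449. Gabra6, a marker of mature granule neurons, was at 0 in every library. Markers of other cell types were low or moderate. The sums went from 147.3–163.9 to 248.4–253.7 CPM for 6 astrocyte markers (1 called higher, Aqp4 and Aldh1l1 at 0), and from 63.5–63.6 to 79.3–79.4 CPM for 7 oligodendrocyte lineage markers (0 called, Olig1 at 0). They were 1.73–2.17 and 0.805–0.900 CPM for 5 microglial markers (1 called lower), and 1.12–2.05 and 0.948–1.42 CPM for 5 endothelial and mural markers (1 called each way, Cdh5 and Kdr at 0). For 6 markers of GABAergic and Purkinje neurons they were 0.356–0.496 and 0.806–0.899 CPM (0 called, Gad1, Gad2, Slc32a1 and Calb1 at 0), and for 5 fibroblast and meningeal markers 0.558–1.63 and 1.99–2.22 CPM (1 called higher, Lum at 0). The calls in the last list, the microglial list and the endothelial list were lost without either DMSO library or GDC0449 replicate 1. The astrocyte sum was carried by Slc1a2, a glutamate transporter (78.0 ± 7.69 to 177 ± 1.96 CPM), while Slc1a3 was at 75.2 ± 4.46 and 71.4 ± 1.87 CPM (SD, n = 2). The granule neuron lineage, astrocyte and oligodendrocyte lineage sums moved in the same direction as the beta protocadherin sum below. So did the low sums of the GABAergic and Purkinje neuron list and of the fibroblast and meningeal list. The part of these lists in the protocadherin results was not tested. In bulk RNA, a change in the number of cells of a type and a change in RNA per cell cannot be told apart.

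Beta protocadherin transcripts were higher after GDC0449 across nearly the whole cluster, by a modest amount, with 18 of the 22 genes at an adjusted p below 0.05 (18.0% of all tested genes were higher by this measure). The summed beta level was 511 and 499 CPM in DMSO replicates 1 and 2 and 651 and 649 CPM in GDC0449 replicates 1 and 2, so that both treated libraries lay above both controls. This was a log2 change of 0.36 with a standard error of 0.06, or 1.29-fold (edgeR adjusted p = 3.50e-06). The summed alpha level was far lower and less even, at 12.0 and 14.3 CPM with DMSO and 18.6 and 16.1 CPM with GDC0449, a log2 change of 0.40 with a standard error of 0.12 (1.32-fold, edgeR adjusted p = 0.00851). The summed gamma level was 109 and 115 CPM with DMSO and 120 and 115 CPM with GDC0449, and its log2 change of 0.07 with a standard error of 0.07 was within the spread of the replicates (edgeR adjusted p = 0.436). None of the 3 sums exceeded the 1.5-fold threshold. The alpha sum rested on 230 to 392 reads a library, and its adjusted p rose to 0.261 without DMSO replicate 1, to 0.101 without DMSO replicate 2 and to 0.158 without GDC0449 replicate 1. The beta sum kept an adjusted p of 0.0303 and 0.0362 without DMSO replicates 1 and 2.

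The gamma total was made up mostly of 1 gene, and the rest did not all move alike. Pcdhgb5 alone held 84.6% of the gamma reads with DMSO and 80.7% with GDC0449, and its mean level was 94.7 ± 4.03 and 94.9 ± 1.02 CPM (SD, n = 2). Summed over the other 20 gamma genes, the level was 17.1 and 17.2 CPM with DMSO and 24.5 and 20.8 CPM with GDC0449, a log2 change of 0.40 (edgeR adjusted p = 0.00295), in a sum chosen after the values were seen. The 2 treated libraries differed from each other more than the controls did, and both stood above them. Within this sum, the 3 gamma C genes were at 5.30 ± 0.0468 and 5.52 ± 0.440 CPM (SD, n = 2). Pcdhga1 had a log2 change of -0.52 (edgeR adjusted p = 0.256), with both treated libraries below both controls. Removing the leading gene changed the other clusters less. Without Pcdhb14, which held 11.1% of beta reads with DMSO, the beta change was 0.40 (adjusted p = 7.27e-07), and without Pcdha9, which held 48.8% of alpha reads with DMSO, the alpha change was 0.34 and its edgeR adjusted p was 0.0893.

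**Figure D1:**
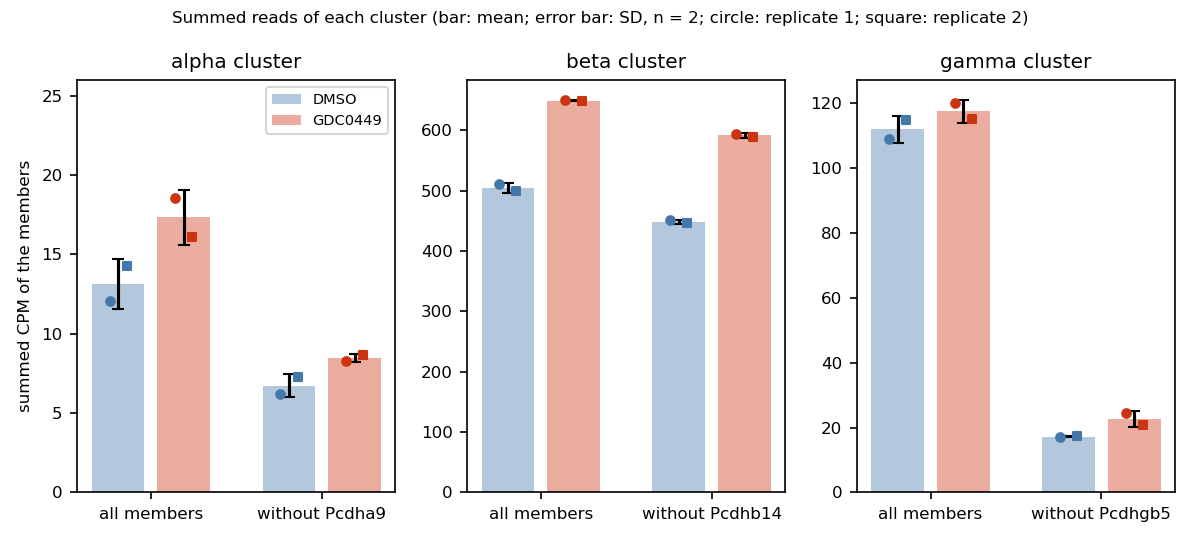
Summed CPM of the alpha, beta and gamma genes in each library (points), with the mean (bar) and SD (error bar, n = 2), for all members and without the gene that has the most reads. The beta sum was higher in both GDC0449 libraries, at 651 and 649 CPM, than in the DMSO libraries, at 511 and 499 CPM, while 1 gamma sum of each group stood at 115 CPM and the groups were clearly apart only without Pcdhgb5. The vertical scales differ between panels.

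Of the 57 members, 41 had enough reads to be tested, namely 5 alpha, 21 beta and 15 gamma genes. By the same rule, 2 alpha, 6 beta and 2 gamma genes were called higher and 0 were called lower, where 8.62% of the 15472 tested genes were called higher and 3.80% lower. With the adjusted p alone, 3 alpha, 18 beta and 2 gamma genes were higher and 0 lower, against 18.0% of tested genes in each direction. Both treated libraries lay above both controls for 4 of the 5 alpha, 20 of the 21 beta and 8 of the 15 gamma genes tested, against 33.6% of all tested genes, and below them for 1 gamma gene, against 32.2%. The median log2 change was 0.63, 0.40 and 0.43 for the tested alpha, beta and gamma genes and 0.01 for all tested genes. Alpha and gamma members passed the expression filter partly through their higher group, so their counts, calls and medians describe only the genes that passed. Changes of all tested genes also varied with level, with a median log2 change of 0.24 up to 1 CPM, where 8 of the 20 tested alpha and gamma genes lie, 0.17 between 1 and 5 CPM, 0.05 between 5 and 20 CPM and -0.02 between 20 and 50 CPM.

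**Figure D2:**
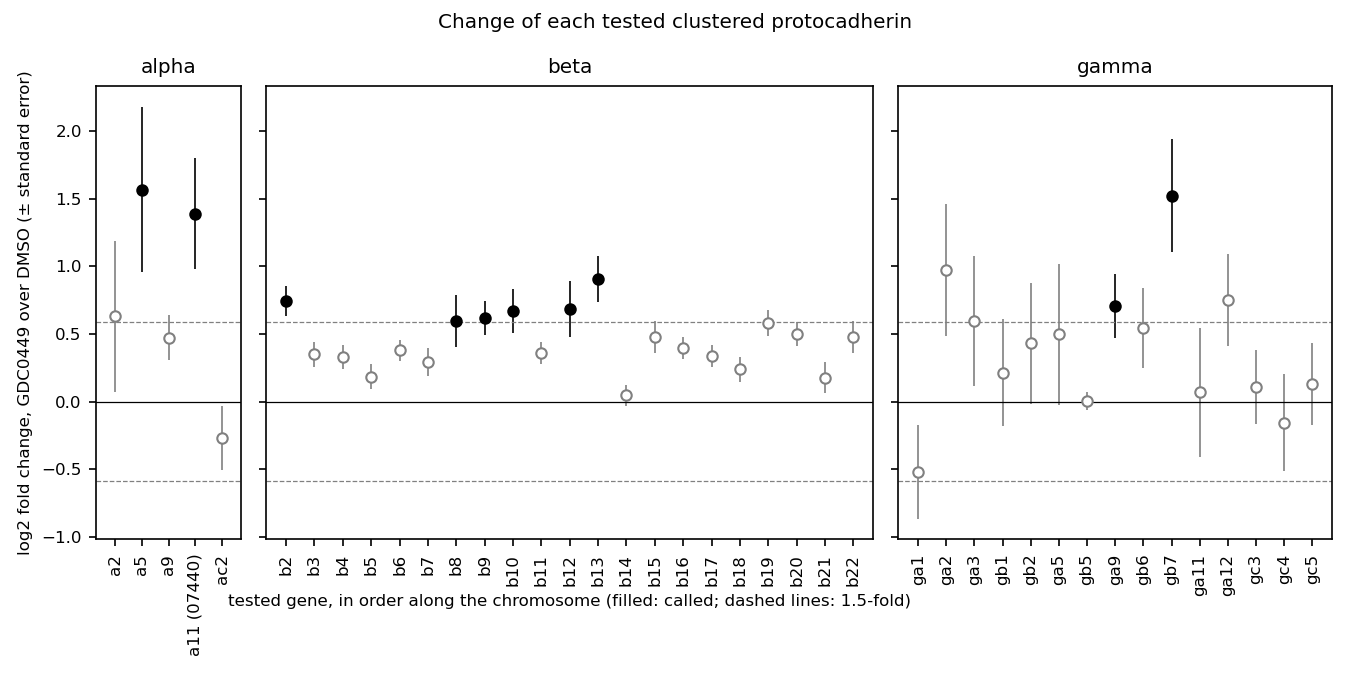
Log2 fold change of each tested member, GDC0449 over DMSO, with its standard error from edgeR, in order along the chromosome. Filled points are the 10 called genes, and the dashed lines mark 1.5-fold. All 21 tested beta genes lie above 0, with short error bars, while the few alpha and gamma genes with large changes have wide ones.

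Pcdhb2 (ENSMUSG00000051599, 37294812 to 37297624) showed the best supported change of the beta cluster. It measured 13.8 and 13.3 CPM in the DMSO libraries and 23.4 and 22.1 CPM with GDC0449, with 215 to 493 reads a library. The log2 change was 0.75 with a standard error of 0.11 (edgeR adjusted p = 3.03e-07). It was called under each of the 12 alternatives tried, including the deposited FPKM values and each left-out library.

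Pcdhb13 (ENSMUSG00000047307, 37442500 to 37446209) had the largest change among the beta genes. Its level was 4.37 and 4.78 CPM with DMSO and 8.53 and 8.57 CPM with GDC0449, a log2 change of 0.91 with a standard error of 0.17 (edgeR adjusted p = 2.37e-05). The replicates of each group were close together and the groups were far apart. Its call missed the threshold without DMSO replicate 1, at an adjusted p of 0.0538.

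Pcdhb8, Pcdhb9, Pcdhb10 and Pcdhb12, which lie between positions 37355121 and 37438654, completed the called beta genes. Pcdhb11 lies between Pcdhb10 and Pcdhb12 and was not called. Pcdhb9 measured 9.91 and 10.2 CPM with DMSO and 15.4 CPM in both GDC0449 libraries, a log2 change of 0.62 (standard error 0.13, edgeR adjusted p = 9.39e-05). Pcdhb10 measured 5.08 and 6.08 CPM with DMSO and 8.62 and 8.99 CPM with GDC0449, a log2 change of 0.67 (standard error 0.16, edgeR adjusted p = 9.49e-04). Neither gene had overlapping groups, and each lost its call when either DMSO library was left out, with adjusted p-values from 0.0523 to 0.0997. Pcdhb12 measured 3.30 and 2.98 CPM with DMSO and 5.16 and 4.97 CPM with GDC0449, a log2 change of 0.68 (standard error 0.21, edgeR adjusted p = 0.00795). An antisense transcript, Gm37446, with 50 and 46 reads under DMSO and 76 and 89 under GDC0449, covers part of Pcdhb12 and leaves 1107 of its 3034 exonic bases free of other genes if strand is ignored, so reads of the pair cannot be told apart without a known strand setting. Pcdhb8 measured 4.27 and 4.28 CPM with DMSO and 7.49 and 5.44 CPM with GDC0449, and its treated libraries were the most unequal of the 6 genes. Its log2 change of 0.60 (standard error 0.19, edgeR adjusted p = 0.0110) stood just past 1.5-fold and dropped to 0.35 without GDC0449 replicate 1. The Pcdhb12 call was lost without either DMSO library (adjusted p = 0.0879 and 0.107) or GDC0449 replicate 1 (0.0506), and the Pcdhb8 call without any of the same 3 libraries (0.227 to 0.324). With DESeq2 the adjusted p was 0.0868 for Pcdhb12 and 0.110 for Pcdhb8, which left 4 beta calls, and Pcdhb8 also lost its call with no filter (0.111) and, at a log2 change of 0.57, with limma-voom.

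The other 15 tested beta genes had log2 changes between 0.05 and 0.58. Pcdhb19 lay just under the fold threshold, with 26.1 and 22.4 CPM in the DMSO libraries and 36.3 and 36.4 CPM with GDC0449 (log2 change 0.58, edgeR adjusted p = 1.92e-06). Of these 15 genes, 12 passed the adjusted p alone and 3 did not, the latter being Pcdhb5 (0.121), Pcdhb14 (0.682) and Pcdhb21 (0.249). The count of beta genes at an adjusted p below 0.05 was 18 with all libraries, 4 without either DMSO library, when 4.81% and 4.21% of all tested genes were higher by this measure, 13 without GDC0449 replicate 1 (11.8% of all tested genes) and 17 without GDC0449 replicate 2 (12.6%). It was 14 with DESeq2 (11.2%) and 12 with no filter on low counts (5.79%).

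The beta genes with the most reads changed little or below the threshold. Pcdhb14 (ENSMUSG00000044043, 37447656 to 37456350) measured 59.2 and 52.5 CPM with DMSO and 56.0 and 59.7 CPM with GDC0449, so that its groups overlapped (log2 change 0.05, standard error 0.08). Pcdhb17 (ENSMUSG00000046387, 37484795 to 37489454) measured 52.3 and 45.5 CPM with DMSO and 62.3 and 61.5 CPM with GDC0449, a log2 change of 0.34 (edgeR adjusted p = 5.59e-04). Pcdhb6 (ENSMUSG00000051678, 37333921 to 37337674) measured 43.9 and 49.2 CPM with DMSO and 61.8 and 58.9 CPM with GDC0449, a log2 change of 0.38 (edgeR adjusted p = 1.36e-04). The groups of Pcdhb17 and Pcdhb6 did not overlap. Pcdhb11 (45.5 and 39.2 against 54.1 and 55.0 CPM, log2 change 0.36) and Pcdhb16 (37.8 and 39.6 against 51.8 and 49.9 CPM, log2 change 0.40) showed the same pattern. In a split chosen after the values were seen, the 6 called beta genes were all among the 9 with a mean under 20 CPM, where the median log2 change was 0.62, and 0 of the 12 beta genes at 20 CPM and over were called, where the median was 0.34. Of all tested genes, 16.6% were called higher between 1 and 5 CPM, 11.1% between 5 and 20 CPM, 5.69% between 20 and 50 CPM and 3.70% above 50 CPM, so few calls at the higher levels are common to all genes. Across the 21 genes, the Spearman correlation of mean level with log2 change was -0.60, while that of position in the cluster with log2 change was -0.09. These correlations describe genes measured in the same 4 libraries, and the level enters both quantities.

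Levels can be compared between genes per kilobase of exonic sequence that belongs to no other gene. On this scale beta genes had a median of 6.27 CPM per unique kb, with Pcdhb6 the highest at 14.2 and Pcdhb1 the lowest at 0.00458. Pcdhb1, at the start of the cluster, had 1 read in all 4 libraries together and was the only beta gene not tested. The alpha genes had a median of 0.172 CPM per unique kb and the gamma genes one of 0.361. Single members stood out in these 2 clusters, with Pcdha9 at 3.08 and Pcdhgb5 at 20.5 CPM per unique kb, the latter above every beta gene.

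**Figure D3:**
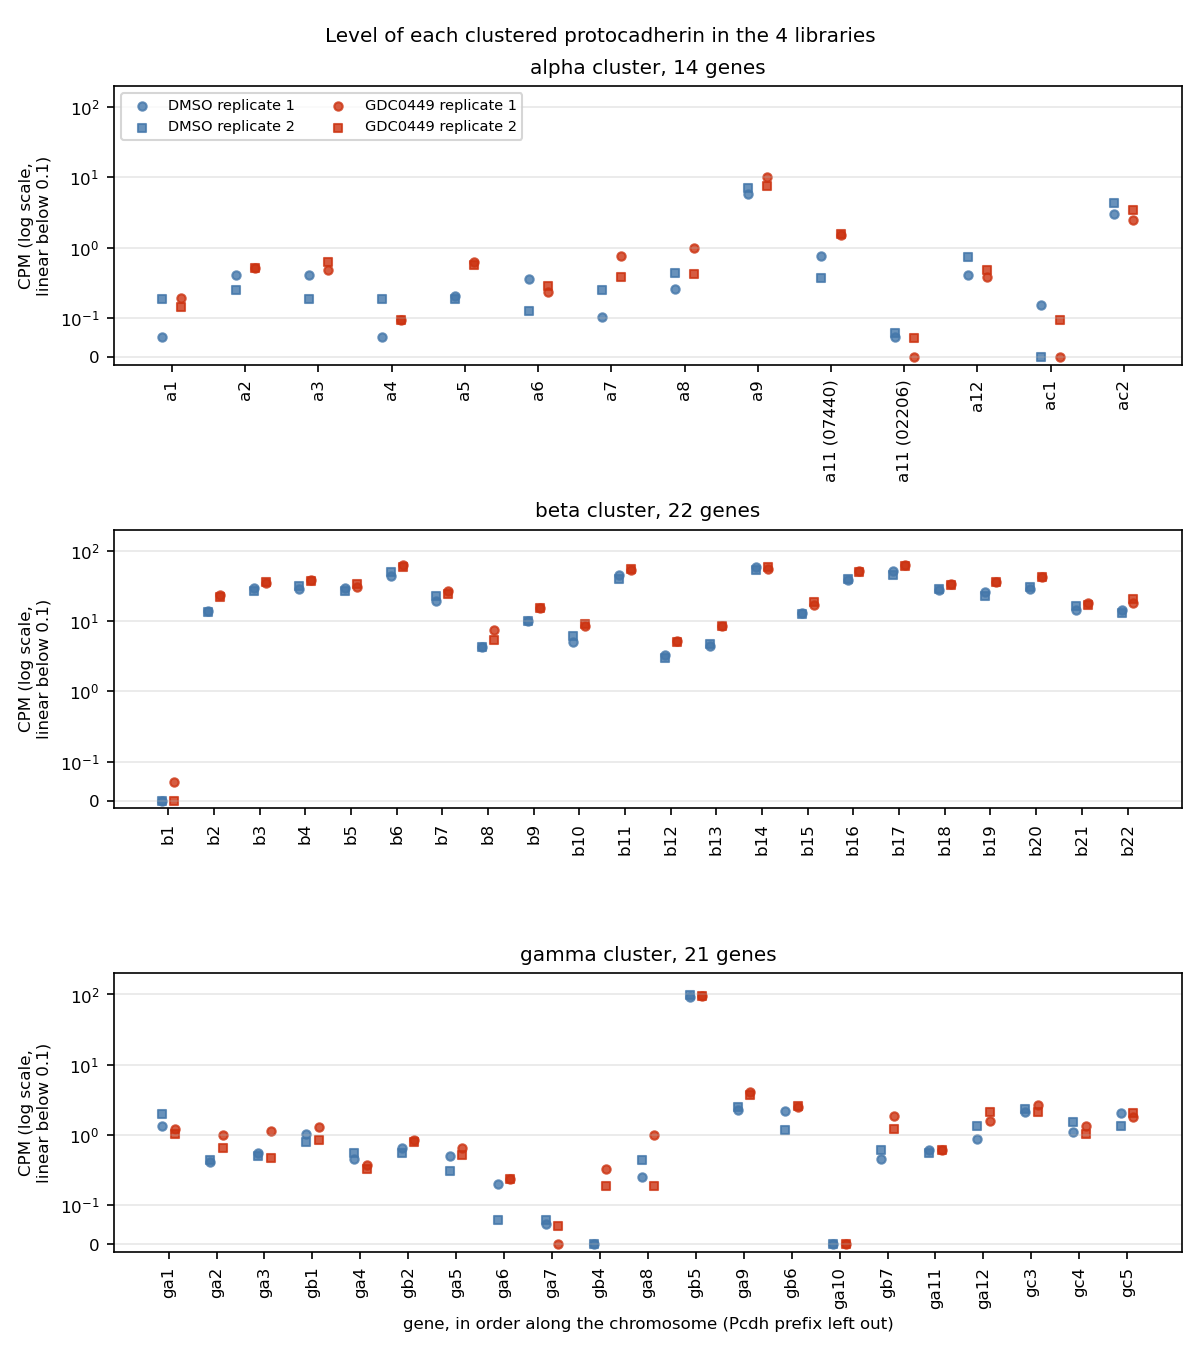
CPM of each of the 57 members in the 4 libraries, in order along the chromosome (log scale, linear below 0.1 CPM). The beta genes other than Pcdhb1 all lie above 1 CPM, whereas 1 gamma gene, Pcdhgb5, stands near 95 CPM over others of at most 4.03 CPM in any library.

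Pcdhgb5 (ENSMUSG00000103749, 37731009 to 37841873) had the highest count of the whole family. It measured 91.9 and 97.6 CPM with DMSO and 95.6 and 94.1 CPM with GDC0449, and the treated libraries lay between the controls. Its log2 change was 0.0032 with a standard error of 0.07 (edgeR adjusted p = 0.978), and the sign of this small change turned with the scaling method.

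The 2 called gamma genes had few reads. Pcdhgb7 (ENSMUSG00000104063, 37751600 to 37841873) had 9 and 10 reads with DMSO and 39 and 26 with GDC0449, or 0.539 ± 0.115 and 1.54 ± 0.437 CPM (SD, n = 2). Its log2 change was 1.52 with a standard error of 0.42 (edgeR adjusted p = 0.00308). Pcdhga9 (ENSMUSG00000102440, 37736936 to 37841870) had 44 and 41 reads with DMSO and 85 and 79 with GDC0449, or 2.24 and 2.54 against 4.03 and 3.74 CPM, a log2 change of 0.71 with a standard error of 0.24 (edgeR adjusted p = 0.0157). The groups did not overlap for either gene. Pcdhgb7 passed the expression filter only with the reads of its GDC0449 libraries, so its call and lack of overlap only describe it. Both calls were lost with DESeq2 (adjusted p = 0.0620 and 0.135) and without DMSO replicate 1, DMSO replicate 2 or GDC0449 replicate 1 (0.0934 to 0.169). An antisense transcript, Gm26672, also overlaps Pcdhgb7, with 14 and 12 reads with DMSO and 14 and 26 with GDC0449.

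The other 13 tested gamma genes ranged in log2 change from -0.52 to 0.97 and none passed the adjusted p. Pcdhgb6 measured 2.19 and 1.18 CPM with DMSO and 2.46 and 2.56 CPM with GDC0449 (log2 change 0.55, edgeR adjusted p = 0.148). Its groups did not overlap, and its DMSO libraries were far apart. By type, the 12 gamma A genes summed to 8.14 ± 0.943 CPM with DMSO and 10.9 ± 1.32 CPM with GDC0449, and the 5 gamma B genes other than Pcdhgb5 to 3.74 ± 0.819 and 6.20 ± 0.809 CPM (SD, n = 2). Of the 6 gamma genes not tested, Pcdhgb4 had 0 reads in both DMSO libraries, 7 in GDC0449 replicate 1 and 4 in GDC0449 replicate 2. Against a floor of 3 reads over the DMSO group, its 0.265 CPM over the GDC0449 group (here without TMM scaling) is 3.22 times as high. This takes the 11 GDC0449 reads as exact and is no lower limit. With no filter on low counts, Pcdhgb4 did not pass the adjusted p (edgeR, 0.111). Pcdhga10 was the only member with 0 reads in every library. No upper limit is given for its level, because 0 of its exonic bases are free of other genes if strand is ignored.

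The alpha cluster was carried by Pcdha9 (ENSMUSG00000103770, 36997880 to 37187657), which held about as many reads as all other alpha genes together. It measured 5.85 and 7.01 CPM with DMSO and 10.3 and 7.43 CPM with GDC0449. The groups did not overlap, but GDC0449 replicate 2 lay close to the controls, and the log2 change of 0.47 with a standard error of 0.17 passed the adjusted p and not the fold threshold (edgeR adjusted p = 0.0225). Without GDC0449 replicate 2 the change was 0.68 and was called (adjusted p = 0.00224). It was 0.22 without GDC0449 replicate 1 (adjusted p = 0.499), 0.33 without DMSO replicate 1 (0.442) and 0.59 without DMSO replicate 2 (0.219). The adjusted p was 0.167 with DESeq2 and 0.199 with no filter on low counts.

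Both called alpha genes had small counts. The gene that GENCODE M21 names Pcdha11 with identifier ENSMUSG00000007440 (37005203 to 37187657) starts 117 bases from the RefSeq start of Pcdha10, and a second identifier, ENSMUSG00000102206, carries the same symbol. The first had 15 and 6 reads with DMSO and 32 and 33 with GDC0449, or 0.567 ± 0.276 and 1.54 ± 0.0322 CPM (SD, n = 2), a log2 change of 1.39 with a standard error of 0.41 (edgeR adjusted p = 0.00581). Pcdha5 (ENSMUSG00000103092, 36960440 to 37187657) had 4 and 3 reads with DMSO and 13 and 12 with GDC0449, a log2 change of 1.57 with a standard error of 0.61 (edgeR adjusted p = 0.0404). The groups of neither gene overlapped. Both genes passed the expression filter only with the reads of their GDC0449 libraries. The filter itself thus favoured a rise, and their calls and lack of overlap only describe them. Pcdha5 lost its call when any 1 of the 4 libraries was left out (adjusted p = 0.152 to 0.251), and Pcdha11 when either DMSO library was left out (0.0620 and 0.129). Both calls were also lost with DESeq2 (0.272 and 0.0842) and with no filter on low counts (0.103 and 0.0579).

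The remaining alpha genes with numbered names were near the limit of detection. Pcdha8 had 0.254 and 0.434 CPM with DMSO and 0.995 and 0.426 CPM with GDC0449, and Pcdha12 had 0.407 and 0.744 against 0.379 and 0.473 CPM. The groups of both genes overlapped and neither was tested. In all, 9 alpha genes were not tested, none of which had a mean above 0.527 CPM, and 3 of the 14 had fewer than 10 reads over the 4 libraries.

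The C-type genes, which many neuron types express without the random choice seen for the other isoforms, showed no change that passed the test. Pcdhac2 (ENSMUSG00000102697, 37143503 to 37187657), which is required for the even spread of serotonergic axons, measured 3.0 and 4.28 CPM with DMSO and 2.51 and 3.45 CPM with GDC0449. Its groups overlapped, and its log2 change was -0.27 with a standard error of 0.24 (edgeR adjusted p = 0.406). Pcdhac1 had 3 and 0 reads with DMSO and 0 and 2 with GDC0449 and was not tested. In the gamma cluster, Pcdhgc3 measured 2.14 and 2.36 against 2.70 and 2.13 CPM (log2 change 0.11). Pcdhgc4, the isoform needed for the survival of many interneurons, measured 1.12 and 1.55 against 1.33 and 1.04 CPM (log2 change -0.16). Pcdhgc5 measured 2.08 and 1.36 against 1.80 and 2.04 CPM (log2 change 0.13). The groups of all 3 overlapped, their edgeR adjusted p-values lay between 0.779 and 0.798, and the sign of each turned when 1 library was left out.

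C-type genes made up 26.2% and 30.0% of alpha reads with DMSO and 13.5% and 22.1% with GDC0449. The difference of -10.3 percentage points had a two-sided exact permutation p of 0.333, the smallest that 2 libraries against 2 can give (0.667 adjusted over the 2 shares). In the gamma cluster the C-type share was 4.90% and 4.59% with DMSO and 4.86% and 4.53% with GDC0449 (exact permutation p = 0.667, and 0.667 adjusted). The clusters were compared with each other by the same exact test. The log2 ratio of summed beta to gamma reads was 2.23 and 2.12 with DMSO and 2.44 and 2.50 with GDC0449, higher in both treated libraries (difference 0.29, exact permutation p = 0.333, adjusted over 3 ratios 0.5). The alpha to gamma ratio differed by 0.33 (p = 0.333, adjusted 0.5, exact permutation), again without overlap, and the alpha to beta ratio by 0.04 (exact permutation p = 1) with overlapping groups. The exact test cannot go below 0.333 with 2 libraries against 2, so it leaves undecided whether the clusters differ in their change.

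The deposited FPKM values (fragments per kilobase of exon, scaled to library depth) gave another picture of the alpha and gamma clusters than the counts. Multiplying FPKM by the exonic length in kilobases removes the length and leaves a quantity on the scale of CPM. For the 20 gamma genes other than Pcdhgb5 this product lay between 60.1 and 66.5, with a median of 61.0, although their mean counts ran from 0 to 3.14 CPM. For Pcdhgb5 it was 183, beside 94.8 CPM. Within single libraries the 20 genes were as tightly grouped, from 61.9 to 68.4 and from 57.7 to 63.5 with DMSO, and from 61.9 to 68.9 and from 58.9 to 65.4 with GDC0449. Among the 13 alpha genes other than Pcdha9 the product lay between 9.49 and 11.9, and for Pcdha9 it was 14.8. In both clusters, then, nearly every gene carried the same amount in FPKM whatever its own count.

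Pcdhga10 is the plainest case. It had 0 reads in every library and FPKM values of 13.1 and 12.2 with DMSO and 13.1 and 12.4 with GDC0449. It shares 2119 of its 4732 exonic bases with other gamma genes, and the antisense Gm26672 covers the rest, leaving 0 bases that belong to it alone if strand is ignored. In the table as a whole, 546 genes had 0 counts and an FPKM of at least 1 in all 4 libraries. The 3 read-through models that join an alpha variable exon to the gamma constant exons (Gm42416, Gm37013 and Gm37388) were of this kind, each with 0 counts and FPKM values between 5.25 and 10.6.

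Beta FPKM values followed the counts. The product of FPKM and length divided by CPM had a median of 0.694 for beta genes, against 23.9 for alpha and 73.3 for gamma genes. Pcdhb12, with its antisense partner, stood highest among beta genes at 2.14, and Pcdhb6 stood at 1.00. The Spearman correlation of FPKM with CPM per unique kb was 0.99 over 22 beta genes, 0.80 over 14 alpha genes and 0.16 over the 20 gamma genes with a unique base, as a description of genes measured in the same libraries.

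**Figure D4:**
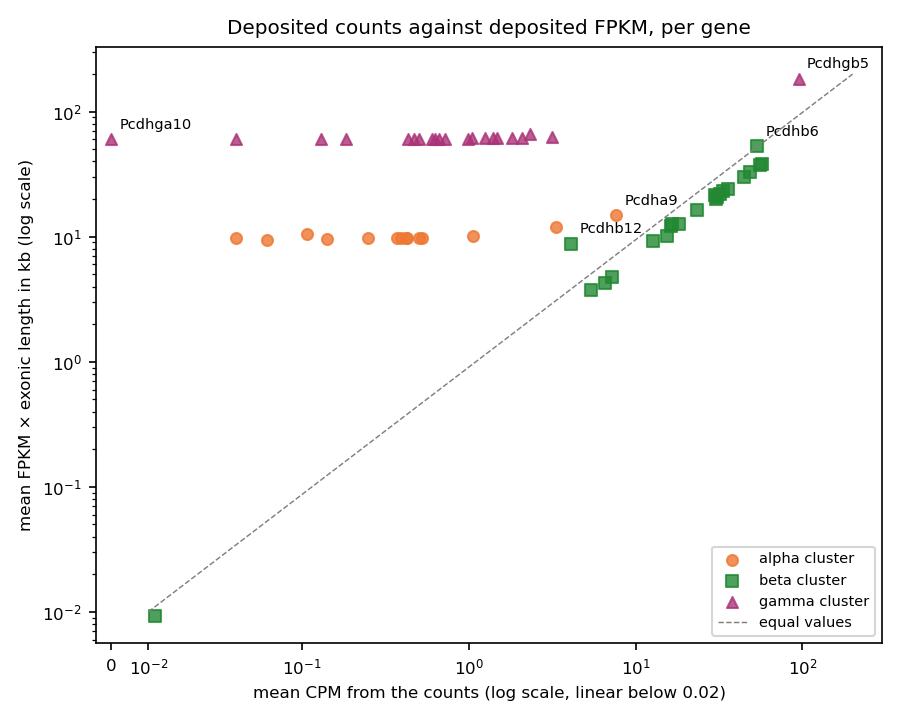
Mean FPKM multiplied by exonic length (vertical, log scale) against mean CPM from the counts (horizontal, log scale, linear below 0.02) for the 57 members over 4 libraries. The beta genes follow the diagonal of equal values at a median ratio of 0.694, while the gamma genes other than Pcdhgb5 form a flat line between 60.1 and 66.5 and the alpha genes other than Pcdha9 one between 9.49 and 11.9.

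Changes read from FPKM differed accordingly. On the log2(FPKM + 1) scale, gamma genes ranged from -0.0017 to 0.031 and alpha genes from 0.05 to 0.23. Pcdhgb7, at 1.52 in counts, was at 0.02, with a mean FPKM of 12.8 with DMSO and 13.1 with GDC0449. The added 1 understates changes of genes with low FPKM. It matters little for gamma genes, whose mean FPKM lay between 8.14 and 27.3. Beta genes ranged from 0.06 to 0.69. With limma, Pcdhb2 (0.69, adjusted p = 0.0115) and Pcdhb6 (0.63, adjusted p = 0.0169) were called higher and 0 members lower, where 3.71% of the 14709 genes tested on this scale were called higher and 2.46% lower. With the adjusted p alone, 7 beta genes passed, against 13.3% of all genes in either direction. The summed beta FPKM gave a log2 change of 0.45 (limma adjusted p = 0.00977), the alpha sum 0.21 (0.176) and the gamma sum 0.02 (0.869). Shared reads may enter the alpha and gamma sums more than once, which was not tested. The log2 change of Pcdhb6 was 0.38 in counts and 0.63 on the log2(FPKM + 1) scale. That of Pcdhb13 was 0.91 in counts and 0.47 on this scale, where the added 1 lowers it. Its mean FPKM went from 0.794 with DMSO to 1.49 with GDC0449, beside 4.57 and 8.55 CPM, a similar ratio.

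Regulators of the clusters were seldom called at 1.5-fold, but many had smaller differences. Of 31 genes for CTCF, cohesin and its loader, DNA methylation and silencing, 31 were tested, 1 was called higher and 1 lower, and the median log2 change was -0.05. With the adjusted p alone 4 were higher and 8 lower, against 18.0% of all tested genes in each direction. At 1.5-fold, 8.62% of all tested genes were called higher and 3.80% lower. Ctcf, which loops promoters to enhancers in these clusters, was at 170 ± 3.71 and 165 ± 3.46 CPM (SD, n = 2, log2 change -0.04, edgeR adjusted p = 0.634), and the cohesin subunit Rad21 had a log2 change of 0.02. Smchd1, a repressor of clustered protocadherins, had one of -0.09 (edgeR adjusted p = 0.291). Dnmt3b, the DNA methyltransferase that methylates unchosen promoters, rose from 15.1 ± 1.80 to 20.3 ± 0.219 CPM, by 0.42 on the log2 scale (edgeR adjusted p = 0.00249), below the fold threshold. Other DNA methylation genes were lower, also below it, namely Dnmt1 (825 ± 38.3 to 707 ± 21.4 CPM, log2 change -0.22, edgeR adjusted p = 0.00191) and Uhrf1 (log2 change -0.31, edgeR adjusted p = 5.67e-05). Among the cohesin-related genes, Pds5a (-0.27, edgeR adjusted p = 5.21e-04) and Wapl (-0.20, edgeR adjusted p = 0.0121) were lower. Tet1, a DNA demethylase, was called higher (42.2 ± 0.283 to 64.0 ± 0.514 CPM, log2 change 0.60, edgeR adjusted p = 1.16e-08), and Rest, a repressor of neuronal genes, was called lower (62.4 ± 2.42 to 37.8 ± 1.31 CPM, log2 change -0.72, edgeR adjusted p = 1.77e-10). The Tet1 call was lost without DMSO replicate 2.

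Partners that process or carry signals from these proteins were also seldom called at 1.5-fold. Of 27 such genes, 24 were tested, 1 was called higher (Cyfip2, of the WAVE complex that drives actin branching, log2 change 0.61, edgeR adjusted p = 3.44e-09) and 0 lower, with a median log2 change of 0.04. With the adjusted p alone 8 were higher and 4 lower. Of all tested genes, 18.0% were higher and 18.0% lower by this measure, while 8.62% were called higher and 3.80% lower. Just under the fold threshold lay Nlgn2, a postsynaptic adhesion protein (log2 change 0.58, edgeR adjusted p = 5.91e-09), and the kinase Fyn (-0.50, edgeR adjusted p = 9.68e-09). The sheddase Adam10 had a log2 change of 0.03 and Ptk2, a focal adhesion kinase inhibited by clustered protocadherins, one of -0.13, and neither passed the adjusted p. Ptk2b, the related kinase, was below the filter at 0.296 ± 0.156 and 0.568 ± 0.133 CPM. The Cyfip2 call was lost without GDC0449 replicate 1, and the list had 2 calls without DMSO replicate 1 or GDC0449 replicate 2.

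Few genes next to the clusters were called at 1.5-fold. Of 30 other protein-coding genes within 500 kb, 25 were tested, and 1 was called higher (Pcdh1, from 0.322 ± 0.192 to 0.971 ± 0.0996 CPM) and 0 lower, with a median log2 change of -0.01. With the adjusted p alone 3 were higher and 5 lower. The shares of all tested genes, for this list and the 2 below, were 18.0% in each direction by the adjusted p alone. At 1.5-fold they were 8.62% called higher and 3.80% lower. The Pcdh1 call, on few reads, was lost when any 1 library was left out. Among 22 non-clustered protocadherins and related large cadherins, 16 were tested, 3 were called higher (Pcdh15, Dchs2 and Pcdh1) and 0 lower, with a median of 0.43. By the adjusted p alone 6 were higher and 1 lower. Pcdh15, a component of hair-cell tip links, measured 37.7 and 39.3 CPM with DMSO and 67.0 CPM in both GDC0449 libraries (log2 change 0.80, edgeR adjusted p = 5.23e-12). Among 24 classical cadherins and their catenins, 12 were tested, with a median log2 change of 0.06. By the adjusted p alone 4 were higher and 3 lower. At 1.5-fold 2 were called higher (Cdh15 and Cdh7) and 2 lower (Cdh4 and Ctnnd2). Only 1 of these was higher without either DMSO library or GDC0449 replicate 1, and 1 lower without either DMSO library or GDC0449 replicate 2.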

How the data were processed

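RNA from 2 DMSO and 2 GDC0449 libraries was analysed from one table. Trim Galore was used for adapters, HISAT2 for mapping to mm10, HTSeq 0.11.1 for counting per gene and DESeq2 1.26.0 for the authors' own test, per the submitters' processing notes. No annotation release, counting mode or strand setting is given in the sources used here. Counts were deposited as raw reads per gene. The deposited FPKM values were computed by the authors from the reads of a gene, its length and the depth, per the series' design text, and the tool is not given. Another 6 entries that name no gene entered neither library sizes nor tests. They included ambiguous reads (4.73% to 4.91% of reads in the table) and multiply aligned reads (10.4% to 10.7%).

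The main test was that of edgeR 4.0.16, run in R 4.3.3 (TMM scaling, default expression filter, quasi-likelihood test, group as the only term, 15472 genes), with Benjamini-Hochberg adjustment over all tested genes. A call needed an adjusted p below 0.05 and over 1.5-fold, the thresholds in the series' design text. Each cluster's summed count was tested as an added feature with the members taken out. FPKM was tested with limma 3.58.1 on log2(FPKM + 1), for genes with at least 0.5 FPKM in 2 libraries. Unique exonic bases and positions came from GENCODE M21 on GRCm38, which held 55480 of 55573 identifiers. The tests were also run on simulated data, in which changed genes moved by more than 1.5-fold and all genes had the same assumed variability. Smaller changes were not simulated.

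The members and lists were chosen with earlier results of these data known. Named with values were each called member, the 5 C-type genes, the 5 genes of each cluster with the highest mean CPM, members with 0 counts, and, of other lists, called genes and 8 regulators or partners, of which 1 is not reported here. Pcdhb1, Pcdhb5, Pcdhb19, Pcdhb21, Pcdhgb4, Nlgn2, Fyn, Slc1a3, Dnmt1, Uhrf1, Pds5a, Wapl and the overlapping transcripts were added after their values were seen. Alternatives were other scalings (relative log expression, upper quartile), filters (none, 5 CPM in 2 libraries) and tools (DESeq2 1.42.0, limma-voom), a replicate block, each library left out, and FPKM. A lone library of a group was then assumed to vary like the other group.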

Additional observations from a re-analysis of the deposited data

How the results depend on the processing

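No member was called lower under the alternatives run on the counts or with the reported FPKM test. The called alpha and gamma genes lay below 5 CPM in every library, so the filter at 5 CPM left them untested and says nothing about their calls. The number of alpha genes called higher, 2 in the reported analysis, was 0 with no filter, with the filter at 5 CPM, with DESeq2 and with FPKM, and ranged from 0 to 2 with 1 library left out. The 2 gamma calls became 0 with the 5 CPM filter, DESeq2 and FPKM, and ranged from 0 to 2 with 1 library left out. The 6 beta calls became 18 with the adjusted p alone and 2 with FPKM, and ranged from 2 to 6 with 1 library left out. The 2 beta calls from FPKM became 4 with a pseudocount of 0.1 and 0 with no filter, and ranged from 1 to 2 with 1 library left out. The difference in the log2 ratio of alpha to beta reads (0.04) was -0.24 with summed FPKM and ranged from -0.10 to 0.17 with 1 library left out, and that in the gamma C-type share (-0.05 points) ranged from -0.22 to 0.11. The log2 change turned sign for Pcdhgb5 with relative log expression scaling (-0.0030), no filter (-0.0032) and DESeq2 (-0.0033), for Pcdhac2 with FPKM (0.050) and for Pcdhgc4 with FPKM (0.0084). With 1 library left out it ranged across 0 for Pcdhgb5 (-0.043 to 0.038), Pcdhb14 (-0.043 to 0.14), Pcdhgc3 (-0.073 to 0.27), Pcdhgc4 (-0.39 to 0.073) and Pcdhgc5 (-0.13 to 0.49). The alpha sum had an adjusted p of 0.0922 with no filter and 0.0773 with DESeq2. Same-numbered libraries share only a number (correlation of replicate differences 0.06). With the replicate number as a block, all genes gave 1392 higher and 608 lower calls against 1333 and 588, and the members 2, 6 and 2 as before. The causes of these changes were not tested. The 230 to 392 alpha reads a library and the 2 libraries a group limit the precision.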
